A study of Mus musculus with 9 samples.

Results

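The 72 protein-coding histone genes of a 55401-gene RNA-seq count table are described here, across 9 libraries of cultured mouse heart cells. They were chosen by name, as the protein-coding rows whose symbol starts with a fixed set of prefixes for H1, H2A, H2B, H3 and H4 genes, which leaves out some histone genes such as H2ax and H2aj. By symbol alone, 64 of them were set down as replication-dependent genes, which lie in the histone clusters on chromosome 13 (54 genes) and chromosome 3 (10 genes). The other 8 are variant genes outside those clusters. They are H3f3a, H3f3b, H2az1, H2az2, H1f0, H1f10, H1f8 and H1f7.

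The cultures were primary neonatal mouse ventricular myocytes (NMVMs) from wild-type C57BL/6J pups at 1 day of age, with 3 libraries in each of 3 groups. Control cultures stayed in normoxia in complete DMEM with 10% FBS. Hypoxia cultures were held for 6 h in a sealed AnaeroPack chamber in DMEM that lacked both glucose and serum. Hypoxia + rSRGN cultures had the same conditions, with recombinant serglycin added during the hypoxic period. Low oxygen and the change of medium came together, so their parts in any difference from control cannot be told apart. Nothing in the labels says that the 3 libraries of a group came from separate preparations, and p-values measure only the spread between these libraries.

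Histones are the proteins around which DNA is wound. Replication-dependent histone genes are transcribed mainly in S phase, when new DNA has to be packed, and their mRNAs end in a short stem-loop in place of a poly(A) tail. The stem-loop is bound by the protein SLBP, and the U7 snRNP directs the cut that forms the end. Variant histones are made through the cell cycle and in resting cells from ordinary polyadenylated mRNAs, so they are the form available for exchange in heart muscle cells, most of which stop dividing after birth. Poly(A) selection preceded library preparation, so a replication-dependent mRNA was counted only as far as it was captured in that step.

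Total counts ran from 16583985 to 22781557 fragments per library and were higher in the control group. Of the 72 histone genes, 39 had enough counts to be tested, 33 replication-dependent and 6 variant. Among the 31 replication-dependent genes that were not tested, 6 had no count in any library, and the best covered was H3c3 with a mean of 0.444 CPM, the count scaled to a common library size (counts per 1e+06 fragments). The variants without a test were H1f7, with no count, and H1f8, with at most 3 counts in a library. Of the 33 tested replication-dependent genes, 19 had at least 10 counts in every library, while 10 reached this in whole groups other than control and 2 in control alone. A gene that entered the test through a group in which it was high is more likely to show a difference, so the sums over all members, which need no filter, are given beside the counts of calls. A gene was called higher or lower at a Benjamini-Hochberg adjusted p below 0.05 in edgeR's quasi-likelihood test, provided the groups differed 1.5-fold or more. Groups without overlap were common. In hypoxia against control 27 of the 39 tested histone genes had none, beside 12242 of all 16762 tested genes.

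The cell markers changed between the groups, in a comparison of hypoxia with control in which 51.6% of all tested genes were called (26.4% higher and 25.1% lower). All 20 genes of a cardiomyocyte list were lower in hypoxia than in control, and their summed level was 60445 to 73101 CPM in control, 5190 to 8150 in hypoxia and 10593 to 11348 in hypoxia + rSRGN. Of 15 fibroblast genes, 12 were higher in hypoxia, with sums of 13700 to 16077, 27804 to 30935 and 31316 to 32755 CPM. Of 12 endothelial genes Eng was higher and 7 were lower (sums of 296 to 325, 517 to 594 and 596 to 600 CPM), and of 9 smooth muscle and pericyte genes Tagln and Pdgfrb were higher and Cnn1 was lower (sums of 1732 to 2049, 2434 to 2742 and 2306 to 2433 CPM). Of 13 macrophage genes Cx3cr1 was higher and 11 were lower (238 to 254, 109 to 164 and 137 to 159 CPM). The 10 neutrophil genes summed to at most 1.45 CPM in any library, with 5 of them at 0 throughout and none tested. In these bulk libraries, fewer cells of a type and less RNA per cell cannot be told apart. The part of the cell mix in the histone results was not tested.

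Among the variants, the H3.3 genes moved apart. H3f3a and H3f3b encode the same H3.3 protein from separate genes on chromosome 1 (180800832 to 180813943, minus strand, GRCm38) and chromosome 11 (116021912 to 116027962, minus strand). H3f3b had 233, 216 and 216 CPM in the control libraries, 874, 1033 and 913 in hypoxia and 838, 835 and 820 in hypoxia + rSRGN. Every hypoxic library lay far above every control library. The log2 fold change of hypoxia against control was 2.08 (SE 0.077, adjusted p = 3.74e-16), a 4.24-fold rise. H3f3a had 369, 369 and 357 CPM in control, 294, 340 and 299 in hypoxia and 280, 268 and 264 in hypoxia + rSRGN. These values ran the other way without overlap, but the log2 difference of -0.23 (SE 0.071, adjusted p = 0.00648) stayed below the fold limit. Per kilobase of exon, the mean level of H3f3b was 74.6 CPM in control and 316 in hypoxia, against 104 and 88.8 for H3f3a.

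The share of H3f3b in the fragments of the pair is measured within each library and does not depend on scaling. It was 38.7%, 37.0% and 37.7% in control, 74.8%, 75.2% and 75.3% in hypoxia, and 75.0%, 75.7% and 75.6% in hypoxia + rSRGN. A two-sided exact permutation test of the shares gave p = 0.1 for hypoxia against control, the smallest value that 3 libraries against 3 allow, and p = 0.3 for hypoxia + rSRGN against hypoxia. As sums over the pair, 587 ± 14.5 CPM in control (SD, n = 3) stood against 1251 ± 108 in hypoxia and 1102 ± 16.97 in hypoxia + rSRGN.

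The 250 bases before the RefSeq start of each H3.3 gene are printed because the genes encode one protein and differed in response. They come from RefSeq (GRCm38.p6), read 5′ to 3′ on the gene's strand, at chr1:180813606-180813855 for H3f3a and chr11:116024505-116024754 for H3f3b. RefSeq sets these starts inside the GENCODE intervals given above, which reach further upstream, so the windows lie within those intervals. Capitals mark matches on either strand to the letters searched, which were TATAAA (the TATA box), CCAAT (a promoter element of many genes), ATTTGCAT (the octamer), AAACACA (the core of the H1 box), TTCNNGAA (the core of the heat shock element), TGACGTCA (the cyclic AMP response element) and CACGTG (an E box).
H3f3a: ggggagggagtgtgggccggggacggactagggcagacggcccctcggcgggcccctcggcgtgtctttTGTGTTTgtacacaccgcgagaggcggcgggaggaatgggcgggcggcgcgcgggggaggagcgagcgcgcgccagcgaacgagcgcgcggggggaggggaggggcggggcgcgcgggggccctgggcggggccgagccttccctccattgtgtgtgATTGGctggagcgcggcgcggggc
H3f3b: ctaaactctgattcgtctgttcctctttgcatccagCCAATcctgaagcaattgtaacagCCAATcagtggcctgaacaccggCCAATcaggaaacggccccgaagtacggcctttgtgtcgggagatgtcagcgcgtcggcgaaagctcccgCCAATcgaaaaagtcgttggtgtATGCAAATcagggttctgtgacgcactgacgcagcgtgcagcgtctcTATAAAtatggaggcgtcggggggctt
The H3f3b window held the CCAAT letters 4 times, the octamer 74 bases before the start and TATAAA 27 bases before it. In the H3f3a window there were 1 CCAAT match, read on the other strand 24 bases before the start, and 1 match to the H1 box core. Neither window held the heat shock element core. A match is a run of letters and not a shown binding site.

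H2az1 and H2az2 encode the H2A.Z variants, which replace H2A in nucleosomes near gene starts. H2az1 had 137, 129 and 125 CPM in control, 201, 210 and 201 in hypoxia and 148, 167 and 169 in hypoxia + rSRGN. The groups formed separate ranges, with hypoxia highest and control lowest. Its log2 fold change of hypoxia against control was 0.65 (SE 0.072, adjusted p = 4.74e-08). H2az2 had 43.0, 41.4 and 40.1 CPM in control, 31.9, 36.3 and 37.8 in hypoxia and 29.1, 32.4 and 32.8 in hypoxia + rSRGN. It was lower in every hypoxic library than in every control library, with a log2 difference of -0.23 (adjusted p = 0.0285) that was below the fold limit. The H2az2 share of the pair's fragments was 24.2% ± 0.254 in control, 14.7% ± 1.07 in hypoxia and 16.3% ± 0.139 in hypoxia + rSRGN (SD, n = 3), and the exact permutation test gave p = 0.1 for each comparison of 2 groups.

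Linker histones of the H1 family bind the DNA between nucleosomes. The family spans both classes, since H1f0 and H1f10 lie outside the clusters while H1f1 to H1f5 lie on chromosome 13. H1f2, which encodes H1.2, had the highest level of the replication-dependent genes per kilobase in every group, with means of 406 CPM per kilobase in control, 244 in hypoxia and 259 in hypoxia + rSRGN. Its libraries read 657, 692 and 553 CPM in control, 426, 313 and 404 in hypoxia and 421, 400 and 394 in hypoxia + rSRGN. All control values lay above all others, with a log2 fold change of -0.73 for hypoxia against control (SE 0.098, adjusted p = 7.06e-07).

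H1f0 encodes H1.0, the linker histone typical of differentiated cells. It had 263, 260 and 231 CPM in control, 396, 335 and 401 in hypoxia and 393, 382 and 383 in hypoxia + rSRGN. The hypoxic libraries were all above the control libraries. The log2 fold change of 0.59 (SE 0.078, adjusted p = 7.34e-07) sat on the limit of 0.585, so the call depends on small shifts. Without control 3, hypoxia 1 or hypoxia 3 it was 0.52, 0.55 and 0.54, without any one of the hypoxia + rSRGN libraries it was 0.57 to 0.58, and each time it fell short of the limit. H1f10, a variant linker gene, had 4.76, 5.24 and 3.24 CPM in control, 9.45, 7.69 and 6.72 in hypoxia and 7.69, 8.62 and 10.7 in hypoxia + rSRGN. Its log2 fold change for hypoxia was 0.85 (SE 0.19, adjusted p = 5.48e-04), with no overlap.

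H1f3 and H1f5 were low in control and higher in both hypoxic groups. H1f3 (H1.3) had 6.92, 7.27 and 4.69 CPM in control, 37.5, 23.5 and 33.8 in hypoxia and 44.1, 36.5 and 34.1 in hypoxia + rSRGN, a log2 fold change of 2.32 for hypoxia (SE 0.17, adjusted p = 3.60e-11). The counted H1f3 gene is 7425 bases long. It starts before the RefSeq start and runs 4884 bases past the stem-loop, so fragments from outside the H1.3 stem-loop mRNA were counted too. H1f5 (H1.5) had 0.449, 0.135 and 0.0966 CPM in control, 9.35, 6.53 and 8.63 in hypoxia and 9.65, 5.83 and 4.86 in hypoxia + rSRGN. Its log2 fold change was 5.11 (SE 0.38, adjusted p = 6.21e-11). With 10, 3 and 2 counts in control, H1f5 entered the test through the hypoxic groups in which it was high. H1f1 (H1.1) rose too, from a mean of 0.169 to 1.22 CPM (log2 fold change 2.81, SE 0.65, adjusted p = 6.29e-04), but hypoxia 2, at 0.289 CPM, overlapped control 2 at 0.316. It had 1, 7 and 3 counts in control and reached 10 counts throughout only in hypoxia + rSRGN, so it too entered the test through a group in which it was high. H1f4 (H1.4) had means of 12.3, 12.4 and 14.6 CPM in the 3 groups and a log2 fold change of 0.01 (SE 0.18), which was -0.20 without control 3.

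The make-up of the linker family therefore differed between groups in fragments, which are not scaled here for the counted length of each gene. H1f2 gave 69.7% ± 0.900 of all H1 fragments in control, 46.4% ± 1.32 in hypoxia and 47.0% ± 0.161 in hypoxia + rSRGN (SD, n = 3). For H1f0 the shares were 27.7% ± 1.14, 46.2% ± 1.99 and 44.8% ± 0.785. H1f3 made up 0.687% ± 0.0876 in control, 3.82% ± 0.410 in hypoxia and 4.43% ± 0.457 in hypoxia + rSRGN. Each of these 3 shares gave p = 0.1 for hypoxia against control in the two-sided exact permutation test, again the smallest possible, and p = 0.2 to 0.6 for hypoxia + rSRGN against hypoxia. The sum over the 10 H1 genes was 908 ± 95.1 CPM in control, 820 ± 109 in hypoxia and 861 ± 28.1 in hypoxia + rSRGN, with overlapping ranges.

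**Figure D1:**
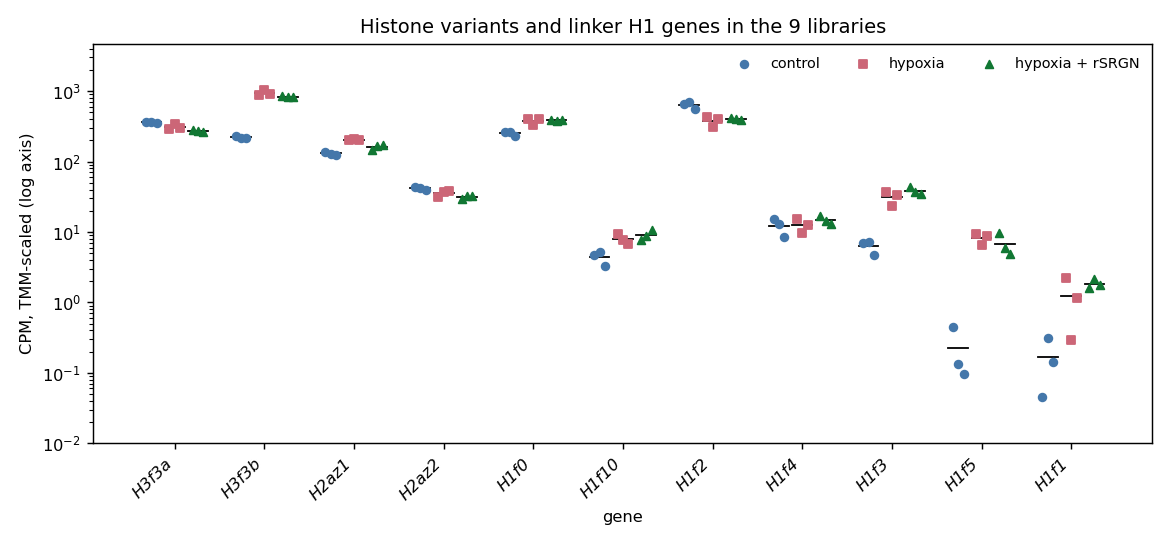
Level of each variant and linker histone gene in CPM (log axis), with 1 point per library and a line at the mean of each group of 3. H3f3b stands higher in all hypoxic libraries and H3f3a slightly lower, and H1f2 falls while H1f3 and H1f5 rise.

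**Figure D2:**
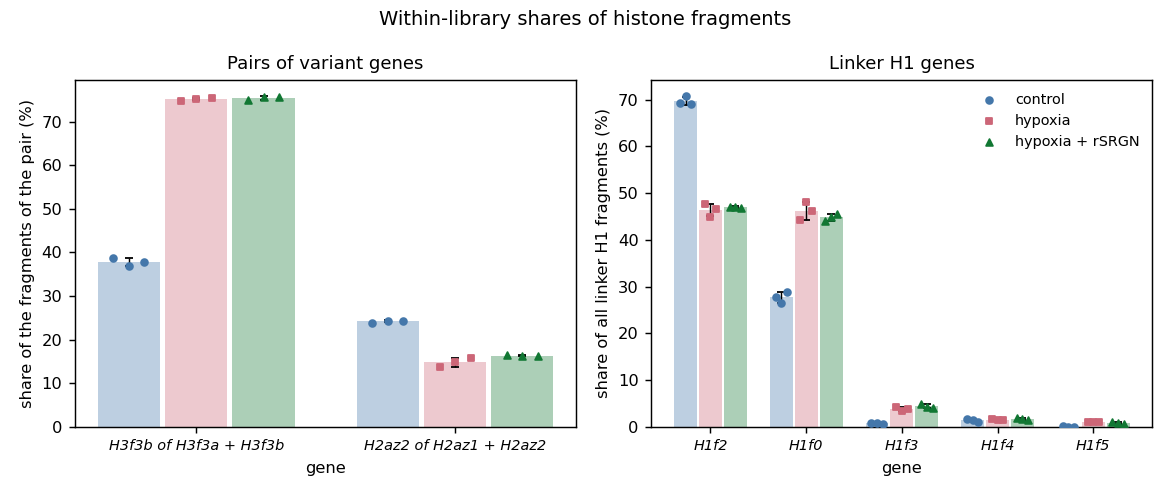
Share of fragments within each library, in percent, for pairs of variant genes and for 5 linker H1 genes. Bars are means, black lines are SD and points are the 3 libraries of a group. The H3f3b share goes from 37.8% in control to 75.1% in hypoxia, and the H1f2 share from 69.7% to 46.4%.

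The windows before H1f2 and H1f5 are shown because these linker genes of one cluster changed in opposite directions. They are the RefSeq bases at chr13:23738557-23738806 (plus strand) and chr13:21780626-21780875 (minus strand), in GRCm38.p6, with the same letters in capitals.
H1f2: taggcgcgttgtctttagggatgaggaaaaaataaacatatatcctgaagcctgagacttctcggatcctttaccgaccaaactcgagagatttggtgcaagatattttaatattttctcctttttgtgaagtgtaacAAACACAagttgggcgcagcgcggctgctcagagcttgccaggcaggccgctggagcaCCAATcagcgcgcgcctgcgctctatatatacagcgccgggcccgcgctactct
H1f5: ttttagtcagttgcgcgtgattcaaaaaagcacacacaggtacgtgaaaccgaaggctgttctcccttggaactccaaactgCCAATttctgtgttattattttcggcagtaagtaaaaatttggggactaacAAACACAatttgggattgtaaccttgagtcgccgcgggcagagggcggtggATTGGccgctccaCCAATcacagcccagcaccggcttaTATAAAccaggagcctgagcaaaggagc
Both windows held the AAACACA letters of the H1 box, as did 5 of the 6 H1 cluster genes, against 6.25% of all 32851 promoter windows. TATAAA was found 28 bases before the start in H1f5 and not in the H1f2 window. The H1f2 window does hold the run tatatata near the start, a form that was not searched. TATAAA was present in 4 of the 6 H1 cluster genes, H1f4 among them (27 bases before the start), whose log2 fold change was 0.01. Over the 58 replication-dependent genes with a window, CCAAT was present in 82.8% against 33.8% of all windows, TATAAA in 48.3% against 12.4% and the octamer in 20.7% against 1.6%. The 12 genes with the octamer were 6 of 16 H2A and 6 of 15 H2B genes. The heat shock element core was found in 3.45% of their windows (7.17% of all), the cyclic AMP response element in 6.90% (1.55%) and the E box in 0 (6.02%). Of the 8 variants, 5 had CCAAT.

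In the replication-dependent class, 20 of the 33 tested genes were called in hypoxia against control, 16 higher and 4 lower. Over all 16762 tested genes, 51.6% were called, 26.4% higher and 25.1% lower, so a call in itself was common in this comparison. The median log2 fold change of the 33 was 0.84 (range -1.45 to 5.11), beside 0.05 over all tested genes. Both moved with the filter on low counts. Over the 19 genes with at least 10 counts in every library, 9 were higher and 4 lower, with a median of 0.60. With at least 1 count in all libraries together, 58 genes were tested, of which 23 were higher and 4 lower, with a median of 1.09. Of the 6 tested variants, 4 were called, all higher, with a median of 0.62. The same class split in hypoxia + rSRGN against control gave 20 of 33, 17 higher and 3 lower, and 3 of 6 variants, where 48.8% of all genes were called, 24.1% higher and 24.7% lower. Both comparisons use the same control libraries.

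The sum over all 64 replication-dependent genes was lower in hypoxia, at 860, 886 and 702 CPM in control, 696, 503 and 644 in hypoxia and 684, 627 and 602 in hypoxia + rSRGN. H1f2 and H2bc4 made up 90.04% ± 1.17 of those fragments in control, 78.1% ± 1.40 in hypoxia and 77.8% ± 1.80 in hypoxia + rSRGN, so these genes, H1f2 above all, set the sum. Over the other 62 genes it ran the other way, with 96.2, 87.4 and 62.1 CPM in control, 163, 105 and 137 in hypoxia and 163, 140 and 122 in hypoxia + rSRGN. No hypoxic library fell within the control range, but H1f3 and H1f5 carried much of that difference. Without these as well, the other 60 genes summed to 88.8, 79.97 and 57.3 CPM in control, 116, 74.9 and 94.3 in hypoxia and 110, 97.5 and 83.0 in hypoxia + rSRGN, and the ranges overlapped. The 8 variants summed to 1014 ± 39.2, 1876 ± 78.6 and 1689 ± 8.19 CPM in the 3 groups.

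Core H3 genes of the clusters encode H3.1 and H3.2, the forms deposited at the replication fork. Of 6 tested, 2 were called, both higher, or 33.3% beside 51.6% of all tested genes. The sum over the 12 H3 genes was 7.41, 8.90 and 6.62 CPM in control, 16.2, 13.6 and 19.7 in hypoxia and 20.1, 19.0 and 15.3 in hypoxia + rSRGN. H3c4 had 2.11, 2.30 and 2.08 CPM in control and 5.32, 4.68 and 8.17 in hypoxia, a log2 fold change of 1.48 (SE 0.23, adjusted p = 5.01e-06). H3c11 was called higher as well, from a mean of 0.380 to 1.66 CPM, with 4 to 11 counts in the control libraries and at least 16 in the others. H3c15 and H3c8 had log2 differences of 0.55 (adjusted p = 0.0349) and 0.70 (adjusted p = 0.0612) and no call, although H3c15 was called without control 2 (0.68) or hypoxia 2 (0.69). With library size alone H3c15 (0.63) and H3c8 (0.77) were both called, and H3c8 also when 10 counts were required in every library (0.70).

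H4 pairs with H3 in the nucleosome, and its 12 cluster genes summed to 18.1 ± 3.51 CPM in control, 26.6 ± 4.47 in hypoxia and 23.1 ± 3.12 in hypoxia + rSRGN. Of 10 tested, 5 were higher and 1 was lower, so 60% were called beside 51.6% of all tested genes. H4c9 had 7.77, 7.72 and 4.78 CPM in control and 12.9, 9.71 and 13.7 in hypoxia (log2 fold change 0.84, SE 0.18, adjusted p = 3.40e-04). H4c8 went down, from 6.92, 6.14 and 5.36 CPM to 3.44, 1.33 and 1.91 (-1.45, SE 0.28, adjusted p = 9.79e-05). Neither gene had overlapping groups. H4c14, H4c4, Hist1h4m and Hist1h4n were higher by 2.66, 2.03, 2.14 and 1.62 on the log2 scale, from control means of 0.247 to 0.595 CPM. With 2 to 21 counts in a control library, these 4 reached 10 counts throughout only in the hypoxic groups, in which they were high, and entered the test there. H4c12 had a log2 difference of 0.60 (adjusted p = 0.153) and no call.

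H2A and H2B form the dimers that flank the H3 and H4 core, and their sums differed less between groups than the spread of the libraries. H2A genes summed to 7.71 ± 2.39, 9.25 ± 2.63 and 9.01 ± 0.830 CPM, and H2B genes to 130 ± 17.5, 127 ± 19.3 and 121 ± 13.01 CPM. H2bc4 held most of the H2B signal, with 107, 107 and 87.3 CPM in control, 106, 85.5 and 103 in hypoxia and 100, 86.9 and 85.8 in hypoxia + rSRGN, and its log2 difference was -0.03 (SE 0.094). H2bc21 encodes H2BE, an H2B form studied in olfactory neurons. It fell from 9.62, 8.99 and 7.73 CPM in control to 5.53, 2.77 and 2.49 in hypoxia (-1.28, SE 0.25, adjusted p = 9.82e-05). H2bc8 rose from 3.68, 3.93 and 3.82 CPM to 7.95, 7.40 and 5.73 (0.88, SE 0.18, adjusted p = 1.68e-04).

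The other called H2A and H2B genes were low. H2bc15, H2bc7 and H2bc11 were higher by 1.27, 1.42 and 0.94 on the log2 scale. H2bc11 was no longer called without control 3 (0.67), hypoxia 1 (0.69) or hypoxia 3 (0.91), nor H2bc7 without hypoxia 3 (1.11). H2ac7 and H2ac8 were higher by 1.13 and 2.85 (H2ac8 from 3 to 6 counts in the control libraries), and H2ac6 was lower (-0.68) with overlapping groups, a call that was lost without control 1 (-0.40) or hypoxia 2 (-0.50). H2bc6 had a log2 difference of -0.33 (adjusted p = 0.245) and was called lower without control 3 (-0.59) or hypoxia 1 (-0.78). It shares 11.2% of its exon bases with H1f4, and counting ignored strand and left out fragments that fitted both.

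Many H2A and H2B genes stand head to head around a shared promoter, and 12 such pairs among the members had starts within 1000 bases. In the 3 pairs with both genes tested, H2ac8 (2.85) and H2bc8 (0.88) start 176 bases apart, H2bc7 (1.42) and H2ac7 (1.13) start 185 bases apart, and H2ac6 (-0.68) and H2bc4 (-0.03) start 251 bases apart, where the values are log2 differences of hypoxia against control. Both genes were called higher in the first and the second pair, but H2ac8 entered the test through the hypoxic groups, in which it was high.

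**Figure D3:**
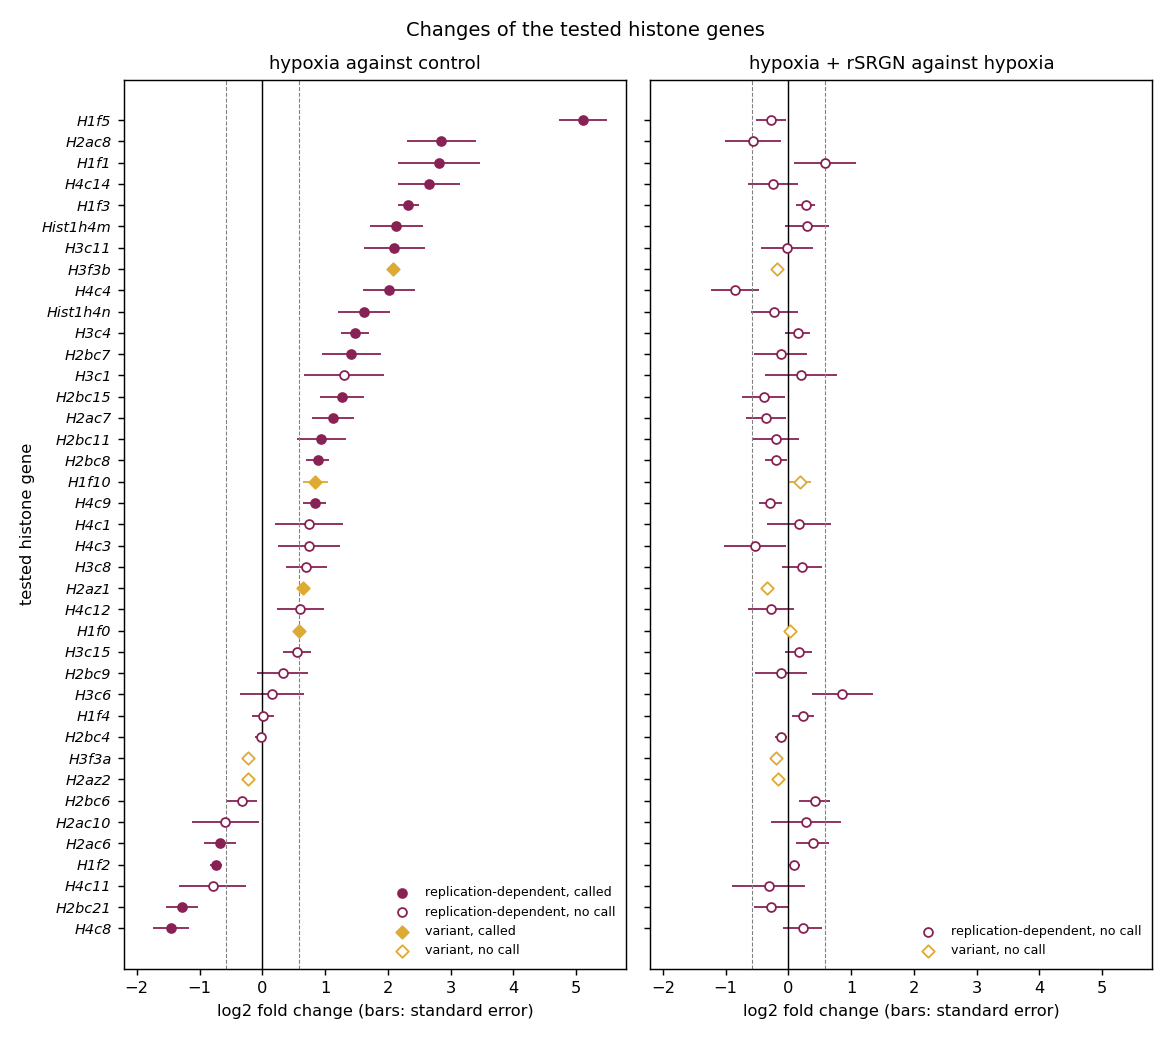
Log2 fold change of the 39 tested histone genes in hypoxia against control (left) and in hypoxia + rSRGN against hypoxia (right), with bars of 1 standard error, filled symbols for called genes and dashed lines at the 1.5-fold limit. Called genes range from -1.45 to 5.11 on the left, and no gene is called on the right.

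The stem-loop was searched in the annotated transcripts (GENCODE release 21, GRCm38) by the known form of a 6-base stem around a 4-base loop. It was present in 41 of the 64 replication-dependent genes, in 0 of the 8 variants and in 7 of 21829 other protein-coding genes. Of these 7, 5 are histone genes that are not among the members. H2ax (listed as H2afx), Hist3h2a, Hist3h2ba and Hist4h4 bear older symbols there that the naming rule would fit, but the rule was applied to the symbols of the count table. Of the 23 genes without it, 11 are annotated with no untranslated bases at either end, so it could not be seen there. Whether the others are annotated far enough past the stop codon to show it was not checked. Examples are printed from 2 linker genes and 2 H4 genes described above, 1 higher and 1 lower of each, with 5 bases on either side in lower case and the 16 bases of the stem-loop in capitals.
H1f2: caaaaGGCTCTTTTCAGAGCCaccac
H1f3: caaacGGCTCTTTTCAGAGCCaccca
H4c9: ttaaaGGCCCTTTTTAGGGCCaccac
H4c8: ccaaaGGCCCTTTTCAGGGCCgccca
These lie at chr13:23739512-23739527 (plus strand), chr13:23555787-23555802 (plus), chr13:22040966-22040981 (minus) and chr13:23531458-23531473 (plus).

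The annotated transcripts often ran past the stem-loop. They continued for over 100 bases in 19 of the 41 genes, and 13 had a poly(A) signal (AATAAA or ATTAAA) beyond it. For H1f2 840 bases follow the stem-loop and for H1f3 4884, and 330 follow in H4c9 and 46 in H4c8, each with such a signal. Among the 28 genes with a mean of at least 1 CPM per kilobase of exon, 13 ran on for over 100 bases and 6 ended within 100, compared with 6 and 16 among the 36 genes below that level. Of the 16 genes called higher in hypoxia, 12 had the stem-loop and 7 of those ran on. Of the 4 called lower, 3 had it and 2 ran on, and of the 13 tested without a call 8 had it and 7 ran on. H2bc4 and H2bc21 had no match in their annotated transcripts, and neither had H1f5 and H1f1. All were placed in the replication-dependent class by symbol, and whether their mRNAs are polyadenylated was not tested. This bears on the lower call of H2bc21 and the higher calls of H1f5 and H1f1. It bears less on the class sum, a mean of 816 CPM in control, of which H2bc4 gave 100 and H1f2 634.

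**Figure D4:**
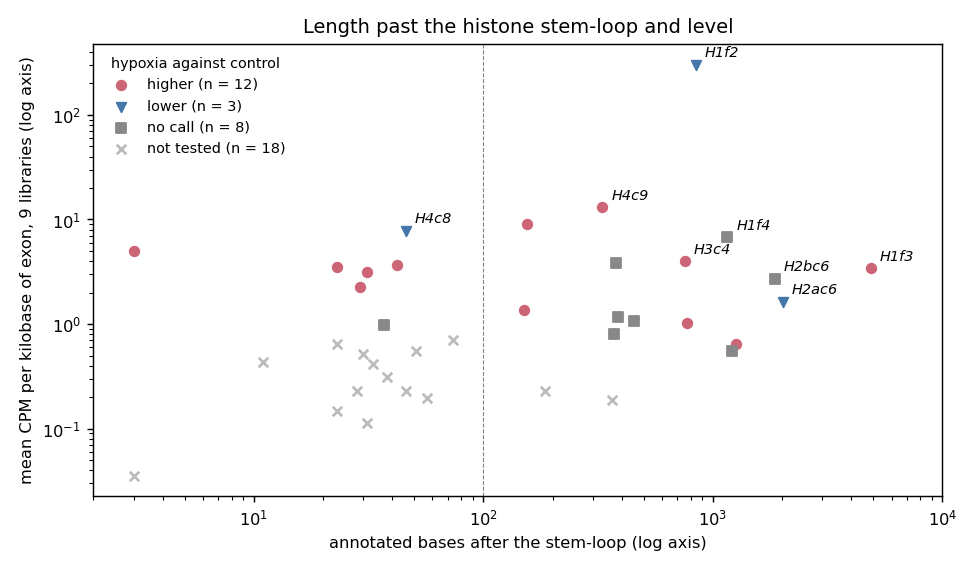
Mean CPM per kilobase of exon over the 9 libraries against the annotated bases after the stem-loop (both log axes) for the 41 replication-dependent genes with a match, by call in hypoxia against control. The dashed line is at 100 bases, 3 genes with 0 counts have no point on the log axis, and H1f2 and H4c9 lie to the right of the line at the highest levels.

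Reads of histone genes can also fit several copies, since the coding sequences are alike. Of the 64 replication-dependent genes, 28 had fewer than 50% of their 100-base windows unique among annotated transcripts, and 20 of these 28 were among the 31 not tested. The 5 genes with no unique window (H2ac18, H2ac19, H2bc18, H3c13 and H3c14) share every exon base with another annotated gene and had 0 counts throughout. The values of H3c11, H3c15, H4c12, H2ac7, H2bc15, Hist1h4m and Hist1h4n, at 11.9% to 47.9% unique windows, are uncertain for this reason. H1f2, H1f3, H1f5, H1f0 and H3f3b had 94.9% to 100% unique windows, and H3f3a 79.2%.

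Mitochondrial RNAs, which lack a long poly(A) tail, changed in both directions. The rRNAs mt-Rnr1 and mt-Rnr2 were higher in hypoxia by 3.81 (SE 0.10) and 3.30 (SE 0.099) on the log2 scale, at 382 to 479 and 1628 to 2021 CPM in control and 5509 to 6239 and 17793 to 19190 in hypoxia. Their level in hypoxia + rSRGN was 5064 to 6027 and 17397 to 20459 CPM. Of the 13 mitochondrial mRNAs, which carry short tails, 11 were lower in hypoxia and 0 higher (median log2 fold change -1.38), beside 25.1% of all tested genes lower. The part of poly(A) capture in the rise of low replication-dependent genes was not tested.

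The genes that act on histone mRNA and histone supply were read from 3 lists. Of 35 genes of histone pre-mRNA processing and decay, 10 were higher and 7 lower in hypoxia (median log2 fold change 0.06), so 48.6% were called beside 51.6% of all tested genes. Slbp, which encodes the stem-loop binding protein, had 30.2, 28.4 and 26.4 CPM in control and 52.6, 55.7 and 60.3 in hypoxia (0.99, SE 0.087, adjusted p = 1.13e-09). Npat, the activator of histone transcription, fell by 0.82 on the log2 scale (adjusted p = 7.97e-06), and Lsm11, a protein of the U7 snRNP, by 0.79 (adjusted p = 6.04e-06). Casp8ap2, another part of the histone locus body, had a log2 difference of -0.02 (adjusted p = 0.879).

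Histone chaperones carry newly made histones to DNA. Of 37, 8 were higher and 3 lower (median 0.13), which is 29.7% called beside the same 51.6%. Asf1b and Chaf1b, which serve deposition at replication, were higher by 1.39 and 0.99, while Chaf1a had a difference of 0.15 (adjusted p = 0.179). The lower ones were Atrx, which with Daxx deposits H3.3 at repeats (-1.08), Ubn2, a partner of Hira (-0.81), and Anp32e, which removes H2A.Z from chromatin (-0.74). Daxx (-0.49), Asf1a (-0.42) and Nasp (-0.37) had adjusted p-values of 3.27e-04, 0.00572 and 1.74e-04 but were within the fold limit, as was Hira, the H3.3 chaperone of active genes (0.50, adjusted p = 0.00205).

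Of 56 genes of S phase and the replication fork, 34 were higher and none lower (median 0.71), or 60.7% called beside 51.6%. Mcm2, of the replicative helicase, was higher by 0.99, Pcna, the sliding clamp, by 1.06, and Ccna2, the S phase cyclin, by 0.79. Ccne1 (0.52, adjusted p = 0.00524), Ccne2 (0.12, adjusted p = 0.407) and the proliferation marker Mki67 (0.27, adjusted p = 0.00524) were not called. The summed level of the list was 1603 to 1705 CPM in control, 2505 to 2572 in hypoxia and 2229 to 2422 in hypoxia + rSRGN.

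The comparison of hypoxia + rSRGN with hypoxia asks what the added protein changed. edgeR's quasi-likelihood test called 0 of the 33 replication-dependent genes and 0 of the 6 variants, where 3.13% of all tested genes were called, 2.27% higher and 0.859% lower. DESeq2 also called 0 of either class. Unadjusted p-values were below 0.05 for H2az1, H3f3a, H3f3b and H4c4. H2az1 was lower in all 3 hypoxia + rSRGN libraries than in any hypoxia library (log2 difference -0.34, SE 0.072, adjusted p = 0.00268), which passed the test and not the fold limit. H3f3a (-0.20, adjusted p = 0.0582) and H3f3b (-0.18, adjusted p = 0.106) were also lower without overlap, and H4c4 (-0.85, SE 0.38, adjusted p = 0.14) as well. The widest difference upwards was H3c6, at 0.86 (SE 0.48, adjusted p = 0.25), also without overlap. These 5 of the 39 tested histone genes stand beside 5360 of all 16762 tested genes without overlap in this comparison. Without hypoxia 1, H2bc6 was called higher at 0.86. The median over the 33 was -0.11, beside -0.03 over all genes. A missing call does not show that a gene was at the same level in both groups. The processing and chaperone lists held no call, and in the S phase list 1 of 56 was lower (Rfc3, of the clamp loader, at -0.59). In the cardiomyocyte list 16 of 20 genes were higher, in the fibroblast list Tcf21 was lower, and Kdr, Tyrobp and Rgs5 were higher in the endothelial, macrophage and smooth muscle lists.

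For hypoxia + rSRGN against control, each log2 fold change is given with that of hypoxia against control in parentheses. H3f3b was higher by 1.91 (2.08), H1f5 by 4.83 (5.11), H1f3 by 2.60 (2.32), H3c4 by 1.63 (1.48), H1f1 by 3.40 (2.81) and H1f10 by 1.03 (0.85), and H1f2, H2bc21 and H4c8 were lower at -0.65, -1.55 and -1.23 (-0.73, -1.28 and -1.45). Called here and not in hypoxia against control were H3c15 at 0.72, H3c8 at 0.92 and H3c1 at 1.501 with overlapping groups, while H2az1 at 0.31, H4c9 at 0.55, H2bc11 at 0.74 and H2ac6 at -0.29 were called there and not here. The difference between the comparisons is the one tested directly above, hypoxia + rSRGN against hypoxia. Several calls turned on 1 library. H3c15 lost its call without hypoxia + rSRGN 2 (0.56), H3c8 without control 3, hypoxia + rSRGN 1 or hypoxia + rSRGN 2 (0.80 to 0.84), H2bc7 without control 2 or hypoxia + rSRGN 1 (1.21 and 0.98), H4c4 without control 1, control 3 or hypoxia + rSRGN 3 (0.98 to 1.06), and H1f0 without control 3 (0.55). H2ac7 lost it without control 2, control 3, hypoxia + rSRGN 2 or hypoxia + rSRGN 3 (0.60 to 0.77), and H2bc15 without any control library, hypoxia + rSRGN 1 or hypoxia + rSRGN 2 (0.76 to 0.94). With the filter of at least 1 count, H2ac7 (0.73), H2bc15 (0.83) and H1f0 (0.58) were not called. In turn, H4c9 was called higher without control 1 (0.65), control 2 (0.64) or hypoxia + rSRGN 3 (0.68) and with library size alone (0.59), and H2bc11 without hypoxia + rSRGN 3 (1.02).

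Histone genes outside the naming rule were looked up after the table had been seen. H2aj (20.03 to 41.6 CPM from control to hypoxia, as means), Macroh2a1 (46.2 to 73.1) and H2aw (2.86 to 6.89) were higher in hypoxia, with log2 fold changes of 1.05, 0.66 and 1.26, and H2bu2 (0.854 to 0.187) was lower at -2.15 (adjusted p = 0.0122). At 0 to 0.385 CPM in the libraries of both hypoxic groups, H2bu2 entered the test through control, in which it was high. These 4 called genes of 7 are 57.1%, beside 51.6% of all tested genes. H2ax, whose phosphorylated form marks DNA breaks, had a log2 difference of 0.52 (adjusted p = 1.63e-04), Cenpa, the H3 form of centromeres, 0.46 and Macroh2a2 -0.38, each within the fold limit.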

How the data were processed

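For each of the 9 poly(A)-selected libraries the authors deposited raw fragment counts by gene. The file header names featureCounts 2.0.1 with paired-end counting on exons of GENCODE release 25 (GRCm38, mm10) and sets no strand option, and the submitters' processing notes name HISAT2. Fragments that fitted several genes or places were left out by the program's default. Genes were filtered with filterByExpr (16762 of 55401 kept), scaled by TMM and compared in 1 fit over the 9 libraries with the quasi-likelihood test of edgeR 4.0.16 in R 4.3.3. The limits were an adjusted p of 0.05 and a fold change of 1.5, the latter after the study's mouse RNA-seq methods. CPM values are counts over the TMM-scaled library size, times 1e+06.

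This fit was tested on simulated counts, with 200 of 16762 genes changed 2-fold. For hypoxia against control it called 149 of them (74.5%) and 7 unchanged genes. The simulation took its spread from the same fit and left most genes unchanged. In the data 51.6% of tested genes were called in this comparison, so these rates cannot be carried over to it. Chi-square per degree of freedom between libraries of a group was 3.81 to 14.6, so no library was a copy of another.

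Members and lists were chosen with earlier results of these data known. Genes named are all tested members with a mean of at least 1 CPM, lower members that were called, and a fixed set of companion genes (Slbp, Npat and others of the 3 histone and S phase lists). Other genes below 1 CPM (H3c3 and H3c6), and the histone genes outside the naming rule, were chosen after their values were seen. Transcripts were those of GENCODE release 21, in which 70 of 72 identifiers matched with their version, and promoters those of RefSeq (58 of 64 replication-dependent genes and 8 of 8 variants had a window). Results were recomputed with DESeq2 1.42.0, with RLE or no scaling factors, with looser (1 count in total) and stricter (10 counts in each library) filters, at the unadjusted p, without the fold limit, on only the groups compared, with a replicate block, and after leaving out each library.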

Additional observations from a re-analysis of the deposited data

How the results depend on the processing

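With at least 10 counts in every library, 13 replication-dependent genes (9 higher and 4 lower of 19 tested) were called in hypoxia against control in place of 20, and 11 in hypoxia + rSRGN against control in place of 20, since fewer genes were tested. In hypoxia + rSRGN against hypoxia, 1 replication-dependent gene was called with the unadjusted p, and 1 variant (H2az1) without a fold limit, in place of 0 and 0. Without that limit 6 variants in place of 3 were called in hypoxia + rSRGN against control. With each library left out in turn, the replication-dependent counts were 19 to 23, 0 to 1 and 17 to 22 in the 3 comparisons, and the variant counts 3 to 4, 0 to 0 and 2 to 3. The replicate numbers did not pair the libraries (correlations of deviations -0.0730 to 0.0727), and with the replicate block 20 replication-dependent genes and 3 variants were called in hypoxia against control, 0 and 0 in hypoxia + rSRGN against hypoxia, and 21 and 3 in hypoxia + rSRGN against control. H1f0 in hypoxia against control was below the fold limit with DESeq2 (0.56), RLE scaling (0.56), either count filter (0.53 and 0.58), only the groups compared (0.58) and the replicate block (0.58). Over the named log2 fold changes, 1408 values kept their side of the threshold, 40 lost a call and 13 gained one. None of the called values changed sign. Among values without a call, 25 of the 1408 changed sign by less than 1 SE and 5 further values by more, which were H1f4 in hypoxia against control (-0.20 without control 3), H2bc21 (0.19), H4c14 (0.17) and H1f2 (-0.03) in hypoxia + rSRGN against hypoxia without hypoxia 1, 1 and 2, and H2bc6 in hypoxia + rSRGN against control (-0.17 without control 3). Library size alone moved the median of all genes by 0.07 on the log2 scale in hypoxia against control. Genes below 1 CPM had few fragments, and a difference there was often not detectable at this depth.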
